A study of Solanum lycopersicum with 32 samples.

Results

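The 45 tomato genes described here were chosen because their transcripts were lower in stems of 35S:TFUL2 plants than in 3 groups of control stems. They were selected on these measurements: counts were scaled by each library's total to CPM, the usual depth-normalised read count, log2(CPM + 1) was averaged within each group, and a gene was kept if its mean in 35S:TFUL2 was lower by 1 or more than in each control group. The rule kept 45 of the 34726 gene rows, and 21680 rows passed a minimum of reads in the 4 groups concerned, all 45 among them. Every difference among these 4 groups is therefore given as a description, with no test.

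FUL2 belongs to the FRUITFULL clade of MADS-box transcription factors, which act in flowering, inflorescence and fruit development. Florigen is the mobile protein signal for flowering encoded in tomato by SINGLE FLOWER TRUSS (SFT), the counterpart of FT in Arabidopsis, and it moves from leaves through the phloem, also across a graft. FUL-clade genes act downstream of florigen in several plants. In stems, the vascular cambium adds xylem fibres and vessels whose thick secondary walls hold cellulose, xylan and lignin, and the title of the series ties florigen to the formation of these walls.

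The study sequenced RNA from mid-segments of tomato internodes in 32 libraries, 2 for each of 16 groups. The rule used 35S:TFUL2 and 35S:SFT stems, in which the constitutive 35S promoter drives FUL2 or SFT, and the wild type (WT) of the same FUL experiment, here WT FUL. Its remaining control, WT overexpression, is the wild type of another experiment, so experiment and genotype cannot be told apart in that comparison. That other experiment also held the sft mutant, titled sft but with the genotype label SFT, and libraries labelled pSFT-SFT and titled pTFT. The grafts, written donor//recipient, were WT//WT, 35S:SFT//WT, 35S:SFT//sp, 35S:SFT//sft and sft//sft, the last titled with a wt partner. In the heat-shock experiment all plants were labelled sft. They lacked or carried pHS:FT, an FT transgene under a heat-shock promoter, and were heated or not. 35S:GinFT plants, the FT gene of Ginkgo under 35S, had no control of their own. The labels do not give plant age, the number of transgenic lines or whether both libraries of a group came from separate plants, so the spread between them, and any p-value built on it, may be technical.

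Library totals lay between 16583755 and 45790153 counts, and between 22570322 and 41017105 in the 4 groups of the rule. The rows known from published work as FUL2 (Solyc03g114830) and SFT (Solyc03g063100) were used to check the labels. FUL2 stood at 1488 and 1155 CPM in 35S:TFUL2 against 2.30 and 4.57 in WT FUL, and SFT at 64.0 and 59.9 CPM in 35S:SFT with 0 reads in both WT FUL libraries. SFT stood at 2.78 and 2.23 CPM in WT overexpression, at 1.64 and 1.36 in WT//WT and at 1.77 and 1.42 in 35S:TFUL2, so WT FUL stood apart at this gene from the other wild types. 35S:GinFT held 1 and 0 SFT reads. In the libraries labelled pSFT-SFT, SFT stood at 1.02 and 1.24 CPM, below the 2.60 and 2.27 of sft, so the SFT transcript did not bear out that label, whereas FUL2 stood at 15.1 and 19.7 CPM against 0.398 and 0.494. The files give gene identifiers without names, and the reference table of names matched 0 of them, so the 45 genes are given by identifier, with no role. For the same reason lists of wall, lignin, cambium and other stem-tissue genes could not be scored, and the stem label was not checked against markers. The chromosome of each gene is the one written in its identifier.

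Over all 21680 rows, 528 (2.44%) were lower in 35S:TFUL2 by 1 or more than in WT FUL, 316 (1.46%) than in 35S:SFT and 986 (4.55%) than in WT overexpression. The median difference over all rows, 35S:TFUL2 minus control, was 0.02, 0.02 and 0.15 in that order on the log2(CPM + 1) scale, and −0.01, −0.01 and 0.02 after TMM scaling. The same rule turned round kept 139 rows that were higher in 35S:TFUL2. Among the 45 genes, the median of the group mean was 6.09 CPM in 35S:TFUL2, 32.7 in WT FUL, 21.3 in 35S:SFT and 28.7 in WT overexpression. Their means in 35S:TFUL2 ran from 0.295 to 102 CPM. No gene was without reads there, and the lowest count in a 35S:TFUL2 library was 6 reads. In bulk stems, fewer cells of a type and less RNA per cell cannot be told apart.

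The median difference of the 45 genes from 35S:TFUL2 was 2.01 for WT FUL (range 1.04 to 4.87), 1.35 for 35S:SFT (1.01 to 3.44) and 2.32 for WT overexpression (1.03 to 4.28). The control nearest to 35S:TFUL2, which decided membership, was 35S:SFT for 24 genes, WT overexpression for 13 and WT FUL for 8. Most genes passed by a small margin: the median difference to the nearest control was 1.16, 26 genes were under 1.2, and 5 reached 2. Both 35S:TFUL2 libraries lay below all 6 control libraries in 45 of 45 genes. The genes were chosen on these same libraries and the share of all rows was not counted, so this only describes the choice. The gap between the highest 35S:TFUL2 library and the lowest control library was 1 or more in 16 genes, with a median of 0.88 and a minimum of 0.01.

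The libraries of 35S:TFUL2 were close to each other, with a median difference between them of 0.21 on the log2(CPM + 1) scale, against 0.29 in 35S:SFT, 0.23 in WT overexpression and 0.63 in WT FUL. In WT FUL the libraries of 13 genes were 1 or more apart, and in WT overexpression those of 6 genes. Leaving out any 1 of the 8 libraries kept between 30 and 44 of the 45 genes, and 22 genes were kept in every case.

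**Figure D1:**
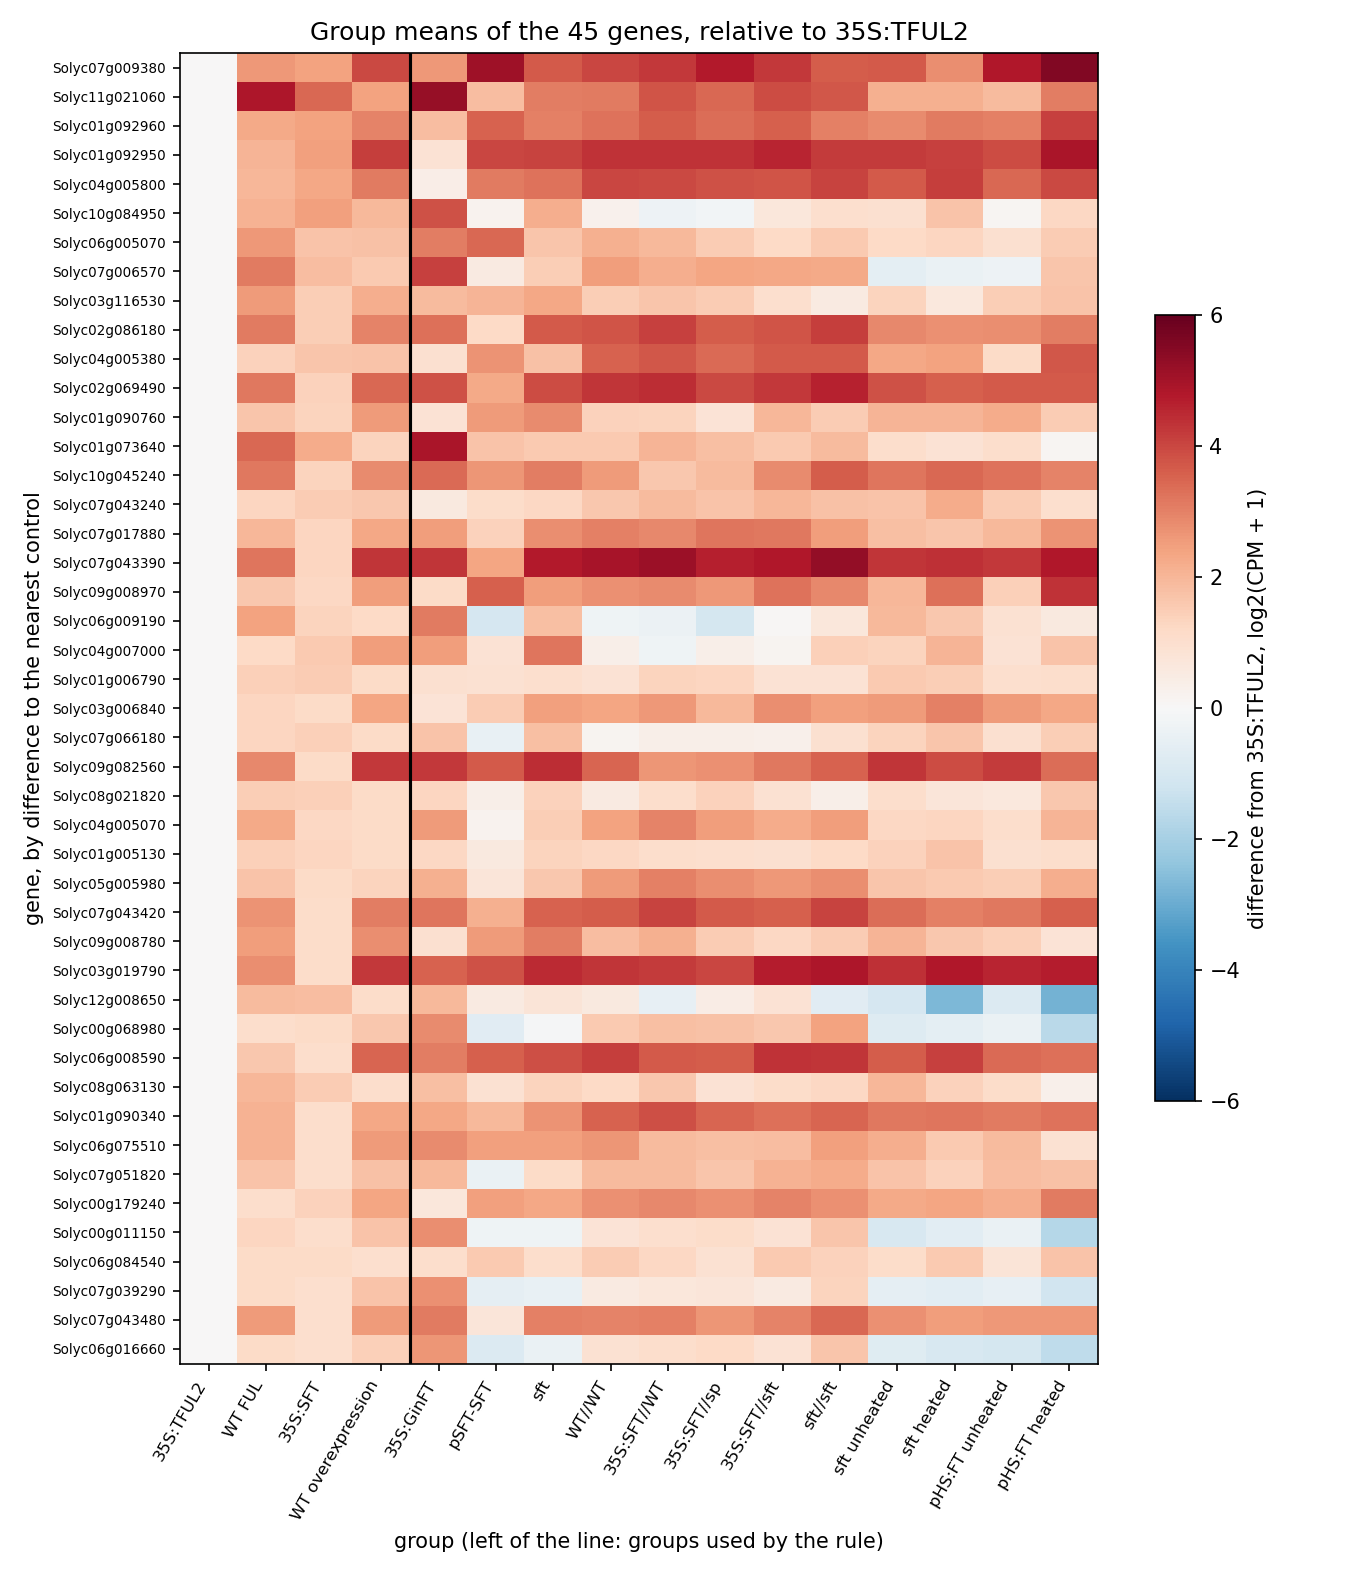
Group means of the 45 genes (rows, identifiers) in the 16 groups (columns), as differences from 35S:TFUL2 on the log2(CPM + 1) scale, red where the group was higher and blue where it was lower. Columns left of the line were used to choose the genes. To the right, most cells are red, and the blue cells fall in a few rows, chiefly in the overexpression and heat-shock groups.

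Solyc07g009380 on chromosome 7 had the largest difference to its nearest control, 2.42 to 35S:SFT. It stood at 53.6 and 49.8 CPM in 35S:TFUL2 (51.7 ± 2.74, SD, n = 2), 592 and 166 in WT FUL, 288.8 and 273 in 35S:SFT and 869 and 792 in WT overexpression. The libraries of WT FUL lay far apart, and the lower of them was above both 35S:TFUL2 libraries. Solyc11g021060 on chromosome 11 followed with 2.40. Its 35S:TFUL2 libraries held 5.14 and 3.87 CPM, against 175 and 145 in WT FUL, 70.5 and 48.2 in 35S:SFT and 25.3 and 30.6 in WT overexpression. Here the wild types of the 2 experiments lay far apart, and 35S:SFT lay between them. The highest control levels were those of Solyc07g043420 and of Solyc07g009380. Solyc07g043420 stood at 117 and 88.0 CPM in 35S:TFUL2, 445 and 1011 in WT FUL, 194 and 251 in 35S:SFT and 786 and 936 in WT overexpression.

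At the threshold, the gene just inside was Solyc06g016660, with a difference of 1.01. It stood at 36.5 and 32.8 CPM in 35S:TFUL2, 56.7 and 105 in WT FUL, 51.9 and 96.0 in 35S:SFT and 39.0 and 234 in WT overexpression. The row just outside, Solyc07g043400 with 0.99, stood at 3.33 and 3.43 CPM in 35S:TFUL2, 15.2 and 43.4 in WT FUL, 6.83 and 8.67 in 35S:SFT and 58.5 and 60.3 in WT overexpression. The row outside thus had the wider gap between its libraries.

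A set of 4 genes, Solyc06g016660 among them, was picked out after the values were seen. In Solyc06g016660, Solyc07g039290, Solyc00g011150 and Solyc00g068980 the WT overexpression libraries differed by 2.47 to 3.25 on the log2(CPM + 1) scale, with replicate 2 the higher. Solyc07g039290, for example, held 27.5 and 24.2 CPM in 35S:TFUL2 against 27.7 and 271 in WT overexpression, a gap of 0.01 to the lower control library. In the 35S:GinFT libraries it held 663 and 47.4 CPM, again far apart. None of these 4 genes met the rule without WT overexpression replicate 2, nor without replicate 2 of WT FUL or of 35S:SFT.

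Outside the 4 groups of the rule lie 24 libraries in 12 groups. Both 35S:TFUL2 libraries were below all 24 in 29 of the 45 genes, against 6.74% of the 21680 rows, and the 35S:TFUL2 mean was the lowest of the 16 groups in 34, against 5.88%. In 14 genes every 1 of the 12 groups was 1 or more above 35S:TFUL2. The median difference from 35S:TFUL2 was 2.53 in 35S:GinFT, 2.34 in sft, 1.58 in pSFT-SFT, 1.91 to 2.46 in the 5 graft groups and 1.47 to 1.99 in the 4 heat-shock groups. Since the genes were chosen for low values in the 35S:TFUL2 libraries, these counts and medians describe them and test nothing, and the groups come from other experiments.

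Of the genes above 35S:TFUL2 by 1 or more in all 12 groups, Solyc07g009380 and Solyc11g021060 had the largest differences. Across the 12 groups the mean of Solyc07g009380 ran from 327 CPM in 35S:GinFT to 2503 in heated pHS:FT, and that of Solyc11g021060 from 18.5 CPM in pSFT-SFT to 204 in 35S:GinFT. In 11 genes at least 1 of the 12 groups lay below 35S:TFUL2. Solyc10g084950 stood at 4.89 and 7.85 CPM in 35S:TFUL2 and at 3.30 and 7.19 in 35S:SFT//WT, with 86.1 and 121 in 35S:GinFT. Solyc07g006570 stood at 10.3 and 6.86 CPM in 35S:TFUL2 and at 5.97 and 4.79 in unheated sft, with 184 and 140 in 35S:GinFT. Both genes were thus as low in some libraries without the FUL2 transgene as with it.

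**Figure D2:**
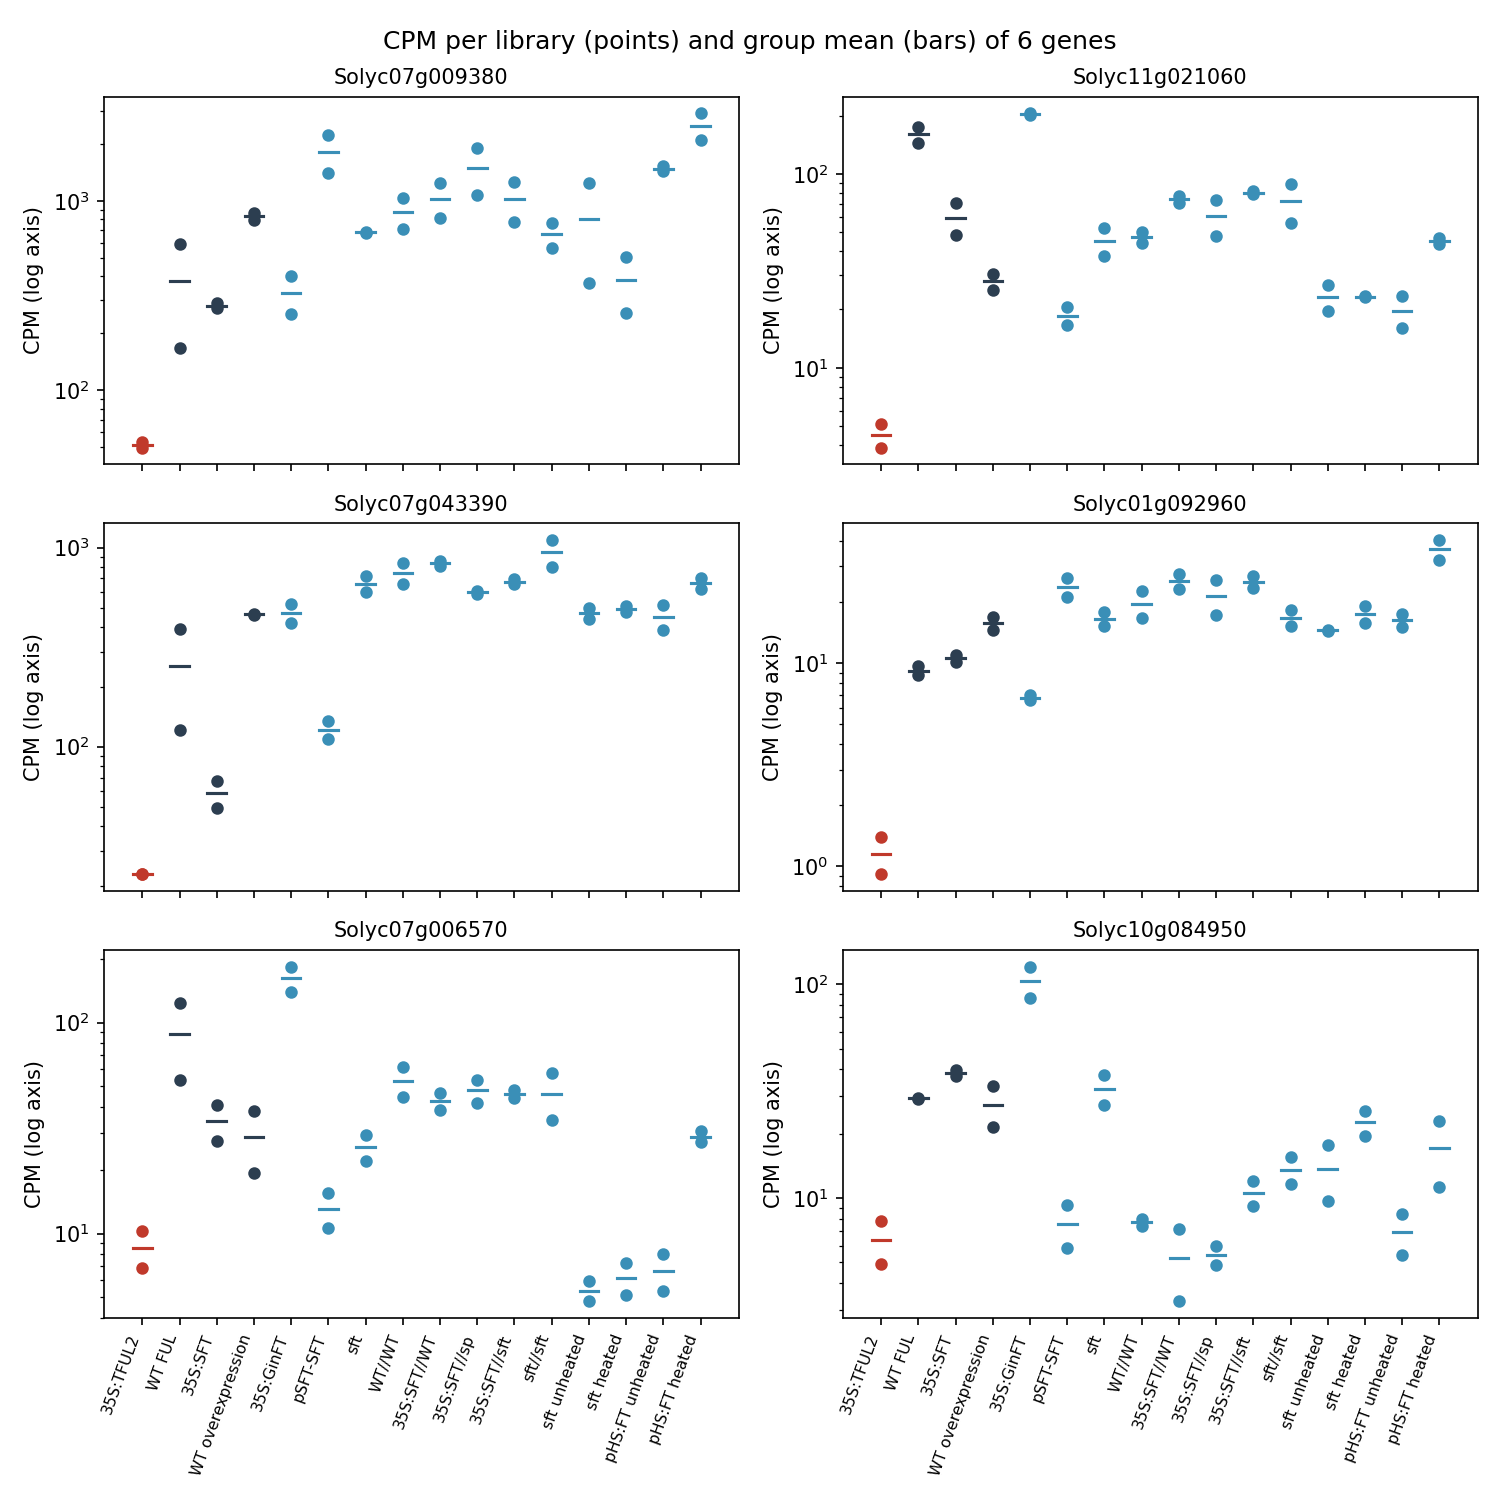
CPM per library (points, log axis) and group mean (bars) for 6 of the genes in all 16 groups, with 35S:TFUL2 in red, the 3 control groups of the rule in dark grey and the other groups in blue. Solyc07g009380, Solyc11g021060, Solyc07g043390 and Solyc01g092960 are lowest in 35S:TFUL2, whereas Solyc07g006570 and Solyc10g084950 reach the same level in other groups.

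By chromosome, 10 of the 45 genes (22.2%) were on chromosome 7, which holds 7.31% of the 21680 rows. Chromosome 1 held 7 genes (15.6% against 12.5% of the rows) and chromosome 6 held 6 (13.3% against 8.79%). A further 3 genes (6.67%) carry identifiers with no chromosome assigned, as do 0.618% of the rows. In all, 10 genes fell into 4 stretches in which neighbouring members were at most 30 listed rows apart. The same count was not made for other sets of rows.

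The longest run of members was on chromosome 7, from Solyc07g043240 to Solyc07g043480, with 4 members in 23 rows. Of these rows 13 passed the minimum of reads and 8 held no read in the 8 libraries. Solyc07g043390 stood at 22.9 and 22.8 CPM in 35S:TFUL2, 121 and 389 in WT FUL, 49.5 and 67.4 in 35S:SFT and 464 and 459 in WT overexpression. Solyc07g043480 stood at 11.8 and 13.7 CPM in 35S:TFUL2, 64.3 and 100.1 in WT FUL, 27.5 and 25.9 in 35S:SFT and 71.0 and 91.1 in WT overexpression. Solyc07g043240 had group means of 2.46 in 35S:TFUL2, 3.77 in WT FUL, 3.97 in 35S:SFT and 4.07 in WT overexpression on the log2(CPM + 1) scale. In that member 35S:SFT was thus above WT FUL, though the libraries of the groups overlapped. In Solyc07g043390, Solyc07g043480 and Solyc07g043420, by contrast, 35S:SFT lay between 35S:TFUL2 and each wild type. Solyc07g043400 and Solyc07g043460, with differences of 0.99 and 0.97 just under the threshold, had the same order of groups. Among the rows from Solyc07g043250 to Solyc07g043360, Solyc07g043330 had that order too, with smaller differences (group means of 4.13 in 35S:TFUL2, 4.51 in 35S:SFT, 4.87 in WT FUL and 4.81 in WT overexpression on the log2(CPM + 1) scale). Solyc07g043360 did not, with 7.33 in 35S:TFUL2 and 7.21 in WT FUL. No sequence was at hand to tell whether these rows are near-identical copies, among which reads may have been split at counting, so values of single rows in it are uncertain.

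The pair Solyc01g092950 and Solyc01g092960 are adjacent rows on chromosome 1. Solyc01g092960 stood at 1.40 and 0.913 CPM in 35S:TFUL2, 9.66 and 8.76 in WT FUL, 10.2 and 10.9 in 35S:SFT and 16.9 and 14.6 in WT overexpression. Solyc01g092950 stood at 1.93 and 2.41 CPM in 35S:TFUL2, 12.3 and 11.9 in WT FUL, 17.4 and 15.7 in 35S:SFT and 54.7 and 55.5 in WT overexpression. In 35S:GinFT, however, Solyc01g092950 held 4.97 and 4.67 CPM, the nearest of all groups to 35S:TFUL2. The stretch from Solyc04g005800 to Solyc04g007000 held 2 members in 22 rows, and that from Solyc09g008780 to Solyc09g008970 held 2 in 16. Solyc04g005800 stood at 9.21 and 5.37 CPM in 35S:TFUL2 and at 9.21 and 9.94 in 35S:GinFT, against 25.5 and 38.4 in WT FUL and 71.9 and 64.5 in WT overexpression. The wild types were thus above, and 35S:GinFT was level with the higher 35S:TFUL2 library.

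**Figure D3:**
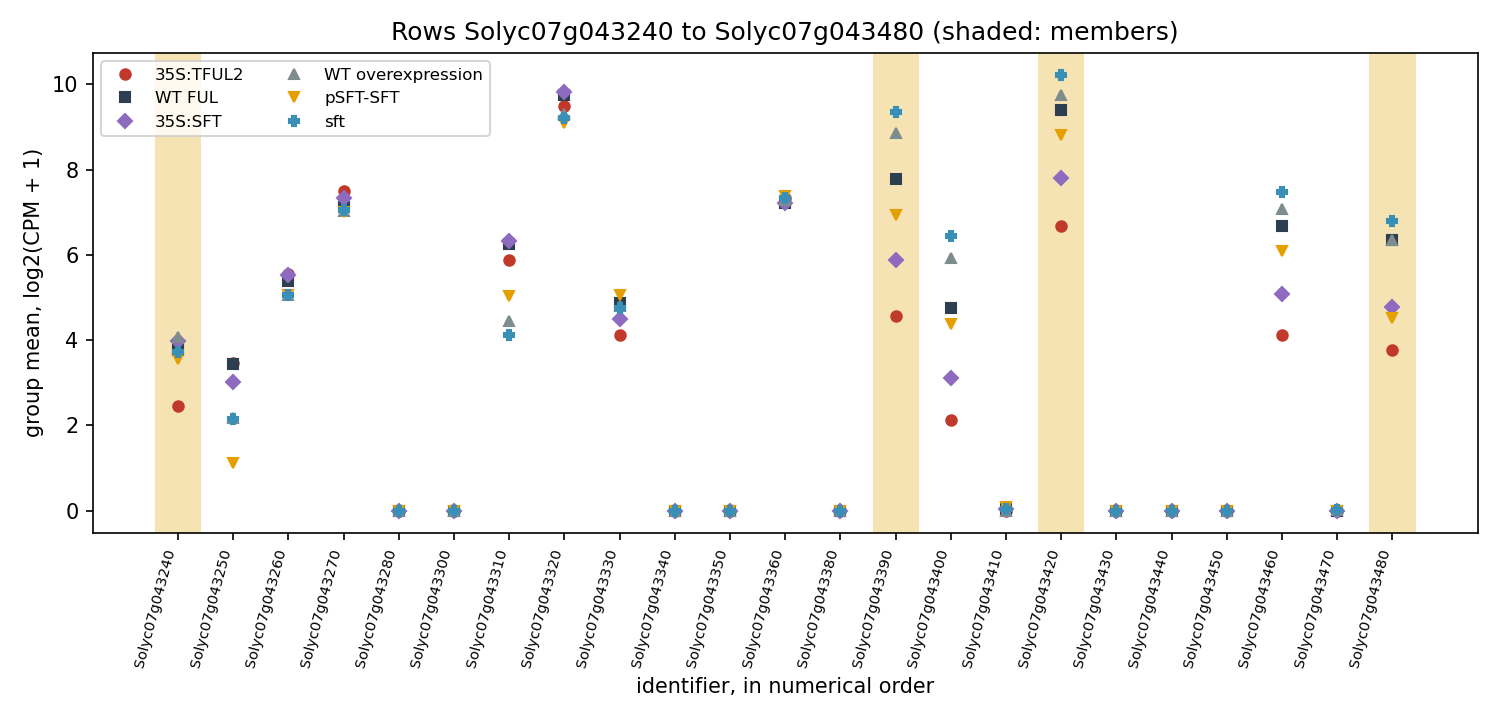
Group means, log2(CPM + 1), of the 23 rows from Solyc07g043240 to Solyc07g043480 in numerical order, for 6 groups, with the 4 members shaded. From Solyc07g043390 onward, each row with reads above 1 CPM has 35S:TFUL2 lowest and sft highest, whereas none of the rows from Solyc07g043250 to Solyc07g043360 has both.

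Tests of the 45 genes used only contrasts between groups outside the rule: edgeR's quasi-likelihood test on the counts, fitted to all groups of an experiment, with Benjamini-Hochberg adjustment over all genes tested. For pSFT-SFT against sft the fit thus also held the WT overexpression libraries, which the rule used. They entered its estimate of spread but were not compared. A fit to pSFT-SFT and sft alone called 23 of the 45 genes, 4 higher and 19 lower. The share of all genes called in that fit is not given here. A gene is called at an adjusted p under 0.05. All 45 genes entered each of the 7 contrasts. In these, 15 genes were called in none, and the share of all genes called in none was not counted.

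Libraries labelled pSFT-SFT against sft gave the most calls. Of the 45 genes, 18 were lower in pSFT-SFT, against 9.08% of the 21141 genes tested, and 4 were higher, against 10.3%. The median log2 fold change of the 45 was −0.51, and that of all genes tested was −0.01. The calls ran from −4.15 to −0.62 among the falls and from 0.58 to 1.99 among the rises. FUL2 itself was higher in pSFT-SFT than in sft, as given above, and its part in these falls was not tested. Of the 22 genes kept by the rule whichever library was left out, 11 were called lower and 3 higher, with a median log2 fold change of −0.84.

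Solyc07g043390, from the stretch on chromosome 7, had the smallest adjusted p. It stood at 134 and 109 CPM in pSFT-SFT and at 718 and 596 in sft, a log2 fold change of −2.41 (SE 0.14, edgeR adjusted p = 0.00040). The groups were far apart and each pair of libraries close. Solyc02g086180 stood at 14.2 and 15.8 CPM in pSFT-SFT and at 103 and 75.3 in sft, a log2 fold change of −2.55 (SE 0.16, edgeR adjusted p = 0.00049). In the FUL experiment it held 7.69 and 4.49 CPM in 35S:TFUL2, 15.3 and 21.5 in 35S:SFT and 37.1 and 95.3 in WT FUL. Of the other members of the stretch, Solyc07g043480 (−2.29) and Solyc07g043420 (−1.36) were also called lower, and Solyc07g043240 was not (−0.09, SE 0.32, edgeR adjusted p = 0.88).

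Of the 4 genes that were higher in pSFT-SFT, Solyc06g005070 stood at 15.9 and 17.03 CPM in pSFT-SFT and at 3.63 and 4.78 in sft (log2 fold change 1.99, SE 0.16, edgeR adjusted p = 0.0011), and at 0.658 and 0.584 in 35S:TFUL2. Solyc09g008970 stood at 25.8 and 26.1 CPM in pSFT-SFT and at 10.7 and 12.8 in sft (log2 fold change 1.16, SE 0.13, edgeR adjusted p = 0.0030). In 35S:TFUL2 it held 1.03 and 1.497 CPM, the lowest of the 16 groups.

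Among the genes chosen, 33 were lower in 35S:SFT than in WT FUL, 17 of them by 1 or more on the log2(CPM + 1) scale. These 17 include 10 of the 18 genes called lower in pSFT-SFT against sft, and the other 28 genes include 8. Levels in 35S:SFT entered the rule, and the same counts were not made over all rows. The split is therefore a description and does not show a shared response. FUL2 stood at 32.3 and 34.7 CPM in 35S:SFT, above both wild types.

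A donor carrying 35S:SFT gave no called change in these genes. In sft recipients, 35S:SFT//sft against sft//sft, 0 of the 45 genes were called by edgeR, which called 0% of the 21566 genes tested higher and 0% lower, and 0 by DESeq2, which called 0.199%. At an unadjusted p under 0.05 in edgeR, 5 were higher, against 2.28% of all genes, and 4 lower, against 2.66%. The median log2 fold change was −0.21, against −0.01 over all genes tested. The gene with the smallest unadjusted p, Solyc01g092950, stood at 71.3 and 77.5 CPM with the 35S:SFT donor and at 56.6 and 58.2 with sft (log2 fold change 0.39, SE 0.10, edgeR adjusted p = 0.85). Next was Solyc07g043480, at 99.8 and 113 CPM with the 35S:SFT donor and at 174 and 126 with sft (log2 fold change −0.48, edgeR adjusted p = 0.95). Neither pair of groups overlapped. The count of calls changed without sft//sft replicate 2, a fit with 1 library in that group. Its share of all genes called is not given here. FUL2 stood at 10.6 and 7.14 CPM in 35S:SFT//sft and at 0.810 and 0.698 in sft//sft.

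In WT recipients, 35S:SFT//WT against WT//WT, edgeR called 0 of the 45 genes, against 0% of all genes higher and 0.0139% lower, and DESeq2 called 0, against 0.387%. At an unadjusted p under 0.05 in edgeR, 4 were higher, against 3.26% of all genes, and 3 lower, against 3.59%. The median log2 fold change was 0.18, against 0.00 over all genes. Solyc06g075510 stood at 50.8 and 52.8 CPM with the 35S:SFT donor and at 99.3 and 73.7 with WT (log2 fold change −0.72, edgeR adjusted p = 0.59). Solyc09g082560 stood at 25.2 and 35.2 CPM with the 35S:SFT donor and at 47.8 and 62.1 with WT (log2 fold change −0.85, edgeR adjusted p = 0.63). Both were lower in each library with the 35S:SFT donor, and neither passed the threshold. In 4 of the 45 genes, against 4.14% of all genes, the libraries with a 35S:SFT donor lay beyond both controls in opposite directions in sft and WT recipients. Solyc06g075510 and Solyc09g082560 remained far above the 13.5 and 12.6 CPM and the 3.87 and 3.94 CPM of 35S:TFUL2.

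Heat alone, tested in sft plants without the transgene, called 0 of the 45 genes by edgeR, against 0.0487% of the 20546 genes tested in each direction, and 0 by DESeq2, against 1.21%. At an unadjusted p under 0.05 in edgeR, 5 were higher, against 4.75% of all genes, and 3 lower, against 4.76%. Solyc06g008590 stood at 105 and 90.8 CPM with heat and at 65.8 and 73.6 without (log2 fold change 0.48, edgeR adjusted p = 0.27). Solyc06g084540 stood at 34.4 and 28.5 CPM with heat and at 25.7 and 19.02 without (log2 fold change 0.49, edgeR adjusted p = 0.34).

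In sft plants carrying pHS:FT, heat raised 9 of the 45 genes, against 3.11% of all genes tested, and lowered 1, against 2.88%. The median log2 fold change of the 45 was 0.10, against 0.02 over all genes. Solyc07g006570 rose from 5.35 and 8.01 CPM without heat to 27.1 and 30.6 with heat (log2 fold change 2.06, SE 0.23, edgeR adjusted p = 0.0086). Solyc01g092960, of the pair on chromosome 1, rose from 15.1 and 17.5 CPM to 32.3 and 40.5 (log2 fold change 1.11, SE 0.15, edgeR adjusted p = 0.012). In both genes the heated libraries stood above all other heat-shock libraries. Solyc09g008780 fell from 27.8 and 32.2 CPM to 17.5 and 21.1 (log2 fold change −0.68, SE 0.14, edgeR adjusted p = 0.033). That call was lost without any 1 of the 4 pHS:FT libraries (edgeR adjusted p of 0.071 to 0.19), in a fit to the groups compared alone (0.072) and with a replicate block (0.060). Solyc01g092960 lost its call without either unheated library (edgeR adjusted p = 0.073 and 0.080). The count of calls was lower without either unheated library and without heated replicate 2, and unchanged without heated replicate 1. Each such fit leaves 1 library in a group, and its share of all genes called is not given here. DESeq2 called 17, against 8.73% of all genes.

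Heated pHS:FT was also compared with heated sft, which shares its heated pHS:FT libraries with the last contrast. Here 5 of the 45 genes were higher, against 2.01% of all genes tested, and 4 were lower, against 0.38%, with a median log2 fold change of −0.06 against 0.00 over all genes. Solyc07g006570 stood at 5.13 and 7.25 CPM in heated sft (log2 fold change 2.22, SE 0.24, edgeR adjusted p = 0.0059), and Solyc01g092960 at 15.8 and 19.1 (log2 fold change 1.07, SE 0.15, edgeR adjusted p = 0.014). Among the falls, Solyc06g008590 stood at 52.3 and 60.4 CPM in heated pHS:FT and at 105 and 90.8 in heated sft (log2 fold change −0.78, SE 0.12, edgeR adjusted p = 0.021). Solyc07g043240 stood at 8.48 and 12.2 CPM in heated pHS:FT and at 26.2 and 24.01 in heated sft (log2 fold change −1.28, SE 0.21, edgeR adjusted p = 0.025). Fewer of the 45 genes were called whichever of these 4 libraries was left out. Without either heated sft library the genes named here lost their calls, though each kept its direction. In Solyc07g006570, for example, the log2 fold change was 1.99 without heated sft replicate 1 and 2.51 without replicate 2. Each such fit leaves 1 library in a group, and its share of all genes called is not given here. DESeq2 called 15 of the 45 genes, against 4.77% of all genes. FUL2 stood at 6.496 and 4.94 CPM in heated pHS:FT and at 0.705 and 0.475 in heated sft.

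The difference between the responses to heat with and without pHS:FT was tested as an interaction. edgeR called 0 of the 45 genes, against 0.0146% of all genes higher and 0% lower, and DESeq2 called 5, against 1.32%. At an unadjusted p under 0.05 in edgeR, 12 were higher, against 5.58% of all genes, and 3 lower, against 3.92%. Solyc07g006570 had the smallest p, with a difference of 1.86 in log2 fold change (SE 0.33, edgeR adjusted p = 0.20), followed by Solyc01g092950 with 1.02 (SE 0.20, edgeR adjusted p = 0.23).

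Contrasts of pSFT-SFT with sft and of heated pHS:FT with heated sft share no libraries. Of the 18 genes lower in pSFT-SFT against sft, 2 were higher in heated pHS:FT than in heated sft and 1 was lower. Of the 4 higher in pSFT-SFT, 0 were higher there. The share of all genes called in both contrasts was not counted, so these counts show neither a match nor a conflict.

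**Figure D4:**
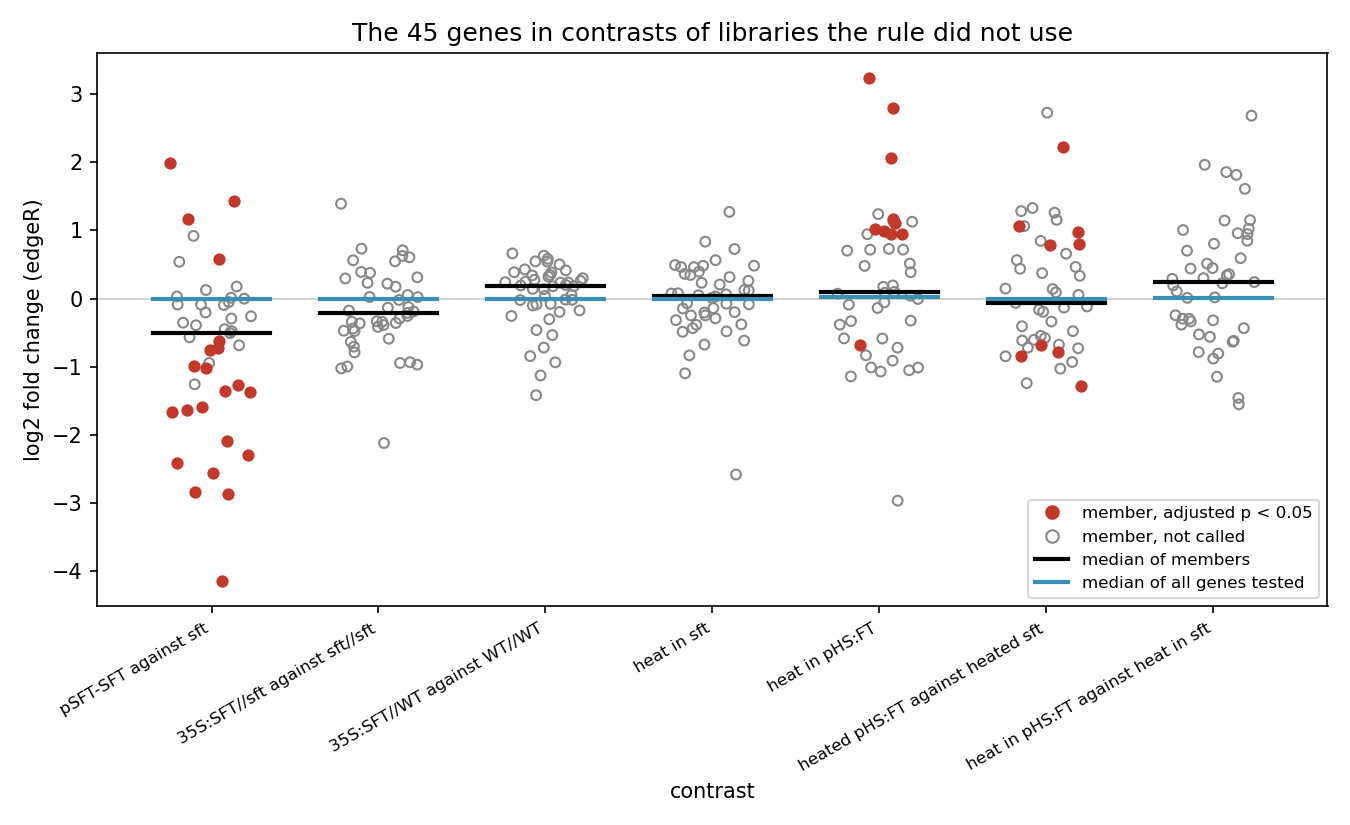
Log2 fold changes of the 45 genes (edgeR) in the 7 contrasts between groups the rule did not use, with genes at an adjusted p under 0.05 filled in red, the others open, and the medians of the 45 (black) and of all genes tested (blue) as bars. In pSFT-SFT against sft the median of the 45 lies at −0.51 with 18 red points below 0, and in the contrasts within grafts there are no red points.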

How the data were processed

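RNA was measured in tomato stems, in single 50 bp reads per the labels' protocols. The authors deposited whole-number counts of reads per gene, in one table of 34728 lines and, for the heat-shock experiment, another of 34825 lines. The tools listed, per the submitters' processing notes, are HTSeq 0.6.1, TopHat2 2.1.0, Bowtie2 2.2.6, FastQC 0.11.5 and Trim Galore. Settings and genome build: not given in the sources used here. The library kit does not mark strand, so overlapping and antisense genes cannot be told apart. All per-sample columns were matched to samples, leaving 0 unused. A chi-square comparison of both libraries of each group gave 7.26 to 47.6 per degree of freedom, so none looked like 1 library deposited in duplicate.

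CPM were computed from the column totals, without TMM scaling, with a constant of 1 added before the log2. The minimum of reads was edgeR's filterByExpr (count 10, total 15). Tests used edgeR 4.0.16 (glmQLFit and glmQLFTest, two-sided, TMM) in R 4.3.3, with Benjamini-Hochberg adjustment over all genes; the procedure was tested on simulated data. Alternatives were DESeq2 1.42.0, other constants and thresholds, fits to the compared groups alone, replicate blocks and leaving out single libraries.

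The genes, the lists and the tests were chosen with earlier results of these data known. Most genes were named by rule, at most 2 of each kind because no names were at hand. The rule took the largest differences and highest levels, the smallest p in each contrast and direction, and those at the threshold. It also took those of each stretch, and those above or below 35S:TFUL2 in other groups. Named outside it were the set picked out after the values were seen, further rows of the stretch on chromosome 7, and the genes flagged for opposite directions in the grafts.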

Additional observations from a re-analysis of the deposited data

Results flagged for a closer look

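For 4 of the 45 genes, both libraries with a 35S:SFT donor lay beyond both control-graft libraries in each kind of recipient, in opposite directions in sft and WT recipients. The same held for 4.14% of the 21566 genes tested. The difference between recipients was not tested. Solyc12g008650 had the widest difference, with a log2 fold change of 1.39 in sft recipients and −1.13 in WT recipients, 2.52 apart. For Solyc01g073640 the log2 fold changes were −0.33 and 0.54, a difference of −0.88. For Solyc07g043420 they were −0.44 and 0.41, a difference of −0.86, and for Solyc02g086180 −0.39 and 0.32, a difference of −0.71. None of the 4 was called by edgeR in either kind of recipient.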

How the results depend on the processing

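The number of genes kept by the rule was 28 with a constant of 2, 8 with a difference of 1.5, 16 when every library had to meet the rule and 172 with WT FUL and 35S:SFT as the controls. It was 51 with TMM scaling, 61 with a constant of 0.5, 35 with WT//WT as a further control and 36 to 62 with 1 library left out. With 1 library left out, the count of members called changed for pSFT-SFT against sft and for 35S:SFT//sft against sft//sft. It also changed for heat in pHS:FT and for heated pHS:FT against heated sft. Such fits leave 1 library in a group, and their share of all genes called is not given here. With DESeq2 the count was 28 for pSFT-SFT against sft, 5 higher and 23 lower. The share of all genes called by DESeq2 in that contrast is not given here. For heat in pHS:FT the DESeq2 count was 17, for heated pHS:FT against heated sft 15 and for the interaction 5. Of the genes named in a contrast, 20 values under an alternative lost the call, 3 gained it and 0 reversed; the cause was not tested.

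Same-numbered libraries correlated at r of −0.10 to 0.37 in the 6 pairs of groups compared directly, with 2 pairs each. The labels give no shared animal, day or batch, and 2 pairs do not settle whether the numbers pair libraries. With a replicate block, 24 members were called in pSFT-SFT against sft, 10 for heat in pHS:FT, 6 in heated pHS:FT against heated sft, and 0 in both graft contrasts, for heat in sft and in the interaction. Chosen after seeing the data, a block for the order of label numbers gave 2 calls in 35S:SFT//WT against WT//WT, and the crossed pairing gave 13 calls for heat in pHS:FT. The share of all genes called in the fits with a block is not given here. With 2 libraries a group, small changes may have gone uncalled. In pSFT-SFT against sft the smallest log2 fold changes called among the members were 0.58 and −0.62.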
